A study of Homo sapiens with 12 samples.

Results

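Interferon-stimulated genes and the sensors that lead to their induction were followed in RNA-seq data of 2 human hepatocellular carcinoma (HCC) cell lines in which EGR1 had been changed. The genes were 39 named genes, and the expression table held all 39 among its 22963 gene names. RIGI was listed there under its older name DDX58. The names came from a list set by function. No measured value entered that rule, but the list was chosen with earlier results of these data known. Each value was an FPKM, the mapped fragments of a gene scaled by transcript length and by library size, so levels are per length and can be set side by side between genes.

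The series held 12 libraries in 4 groups of 3. PLC/PRF5 cells carried either an empty lentiviral vector or the same vector with EGR1 behind a CMV promoter, and both versions also encode copGFP and a puromycin resistance gene. MHCC97H cells were either parental or from a CRISPR/Cas9 EGR1 knockout, which had been isolated as single clones, and which of these clones was sequenced is not given in the sources used here. No interferon or drug treatment, and no virus other than the lentiviral vectors, was named for any of these libraries. The labels number the 3 libraries of each group as biological replicates and do not say what was repeated (cultures, passages or clones), so p-values measure the spread between these libraries only.

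EGR1, the targeted transcription factor, was checked first. Its FPKM was 1.97, 1.43 and 2.03 with vector and 56.3, 50.2 and 52.2 with EGR1 overexpression, a log2 difference of 4.27 ± 0.11 (SE, limma adjusted p = 1.58e-07). In MHCC97H it was 20.2, 23.1 and 21.2 in parental libraries and 35.2, 50.3 and 32.9 in the libraries labelled knockout, a log2 difference of 0.83 ± 0.15 (limma adjusted p = 0.00126). An exact permutation test of 3 against 3 libraries, 2-sided, cannot go below 0.1 and gave p = 0.1 for EGR1 in both lines. The EGR1 transcript was thus raised in the libraries labelled knockout. A transcript level does not show whether the protein is made. The authors report checking their knockout clones by western blot and DNA sequencing, which these libraries cannot show. The libraries are called "labelled knockout" throughout.

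Depth per library is unknown, because FPKM keeps no read total, so no counting interval is given. The FPKM of all genes summed to 376335 to 437652 per library, and replicate libraries correlated with r of 0.993 to 0.997 on log2(FPKM + 1). Both lines were checked against hepatocyte markers. PLC/PRF5 expressed 8 of 9, whereas parental MHCC97H expressed 4 of 9 (APOB, KRT8, KRT18 and HNF4A), with SERPINA1 at 0.16 to 0.29 FPKM. Of 8 leukocyte markers, the defining ones PTPRC, CD3E and CLEC4C were at or near 0 in all groups, whereas CD68, which many other cells also express, was at 26.3 to 56.2 FPKM and LYZ was at 95.1 to 178 FPKM in PLC/PRF5 and at most 0.139 in MHCC97H. The summed level of this list was 152 to 216 FPKM with vector, 125 to 157 with EGR1, 27.4 to 30.8 in parental MHCC97H and 53.3 to 58.4 in the libraries labelled knockout, and its part in the results below was not tested.

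In an interferon response, cytosolic sensors such as RIG-I and MDA5 for RNA and cGAS with STING for DNA lead to secretion of interferons. Type I and type III interferons then act through their receptors, JAK1 and TYK2 on a complex that holds STAT2 and IRF9, which binds the interferon-stimulated response element in the promoters of its target genes. Many of these genes encode antiviral proteins, and in the liver they limit the hepatitis viruses. Several also have a basal level without added interferon, which depends in part on STAT and IRF proteins present in unstimulated cells.

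The response element was looked for in the promoters first, since it is what the complex named above binds. RefSeq promoters (build GRCh38.p14, windows of 300 bases, from before to just after a gene's start) were given for 29 of the 39 genes. The core of the element, read as GAAA, then any 2 bases, then GAAA, on either strand, was present in 19 of 29 and in 4.38% of the 27305 genes with a promoter in the same table. The promoters of IFI6, BST2, ISG20 and IFITM3 are shown because they hold these letters and because, among such genes, these had the largest called differences in the 3 comparisons of one group with another below. Each is read 5′ to 3′ on the gene's strand with the matches in capitals.
IFI6, chr1:27672143-27672442, minus strand: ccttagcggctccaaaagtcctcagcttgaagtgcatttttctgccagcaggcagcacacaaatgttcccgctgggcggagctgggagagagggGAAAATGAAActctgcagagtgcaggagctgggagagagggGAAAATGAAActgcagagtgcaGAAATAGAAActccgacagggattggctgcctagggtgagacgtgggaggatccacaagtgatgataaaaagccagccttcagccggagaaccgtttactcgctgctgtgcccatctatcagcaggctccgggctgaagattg
BST2, chr19:17405581-17405880, minus strand: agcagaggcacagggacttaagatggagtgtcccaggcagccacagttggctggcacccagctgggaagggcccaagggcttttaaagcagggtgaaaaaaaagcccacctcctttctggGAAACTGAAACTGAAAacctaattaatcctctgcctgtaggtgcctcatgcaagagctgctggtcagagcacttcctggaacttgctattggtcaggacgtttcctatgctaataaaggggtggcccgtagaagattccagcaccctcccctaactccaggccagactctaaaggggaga
ISG20, chr15:88638766-88639065, plus strand: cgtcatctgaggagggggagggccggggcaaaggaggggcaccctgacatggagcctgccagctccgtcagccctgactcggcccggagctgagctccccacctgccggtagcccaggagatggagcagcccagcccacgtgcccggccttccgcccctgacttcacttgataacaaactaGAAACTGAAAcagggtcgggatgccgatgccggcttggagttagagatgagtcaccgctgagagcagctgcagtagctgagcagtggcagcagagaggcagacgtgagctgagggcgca
IFITM3, chr11:320811-321110, minus strand: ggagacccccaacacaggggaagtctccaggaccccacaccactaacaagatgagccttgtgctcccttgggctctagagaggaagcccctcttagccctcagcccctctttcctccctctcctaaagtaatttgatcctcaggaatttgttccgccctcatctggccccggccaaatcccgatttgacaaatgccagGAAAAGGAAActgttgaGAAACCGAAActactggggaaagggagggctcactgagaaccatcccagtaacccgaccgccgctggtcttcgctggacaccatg

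IFI6 held 3 matches, BST2 and IFITM3 held 2 each, and ISG20 held 1. In BST2 the 2 matches overlapped by 4 bases, so they form 1 run. The letters TTCNNNGAA, the core bound by STAT dimers, were present in 8 of 29 promoters against 9.38% of all genes. The letters GCGNGGGCG, the core of the EGR1 site, were present in 1 of 29 promoters, that of IRF1, against 11.2% of all genes. A match describes the letters of this window only. The stretch of the IRF1 promoter with both kinds of match is shown because IRF1 was higher in both EGR1 comparisons; it was chosen after its values were seen. The first capitals are the STAT core and the second are the EGR1 core, read on the opposite strand.
IRF1, chr5:132490842-132490909, minus strand: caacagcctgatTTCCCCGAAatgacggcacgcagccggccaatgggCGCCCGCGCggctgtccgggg

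To say which of these genes each line expressed at all, a mean of at least 1 FPKM in at least 1 of the line's groups was required. PLC/PRF5 expressed 22 of 39 and MHCC97H 25 of 39, and about the same share of all gene names passed in each line (52.2% and 52.0%). The lines shared 17 genes, among them OAS1, OAS3, ISG15, IFITM3, IFI35, EIF2AK2 and STAT2. Only PLC/PRF5 passed for IRF9, HERC5, HERC6, USP18 and BST2. Only MHCC97H passed for STING1, DHX58, IRF7, IFIT3, OAS2, OASL, IFITM2 and SAMD9L.

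The other 9 genes passed in neither line. They were CGAS, IFIT1, IFIT2, MX1, MX2, RSAD2, IFI44, IFI44L and XAF1, of which several are among the most inducible genes after interferon. RSAD2, which encodes viperin, was listed at 0 in all 12 libraries. IFI44 and IFI44L did not exceed 0.044 FPKM in any library, and MX1, a GTPase that blocks many viruses, lay between 0.024 and 0.317. IFIT1 came nearest to the limit, at 0.67, 0.90 and 0.83 FPKM with vector. CGAS, the DNA sensor, stayed between 0 and 0.16 FPKM.

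**Figure D1:**
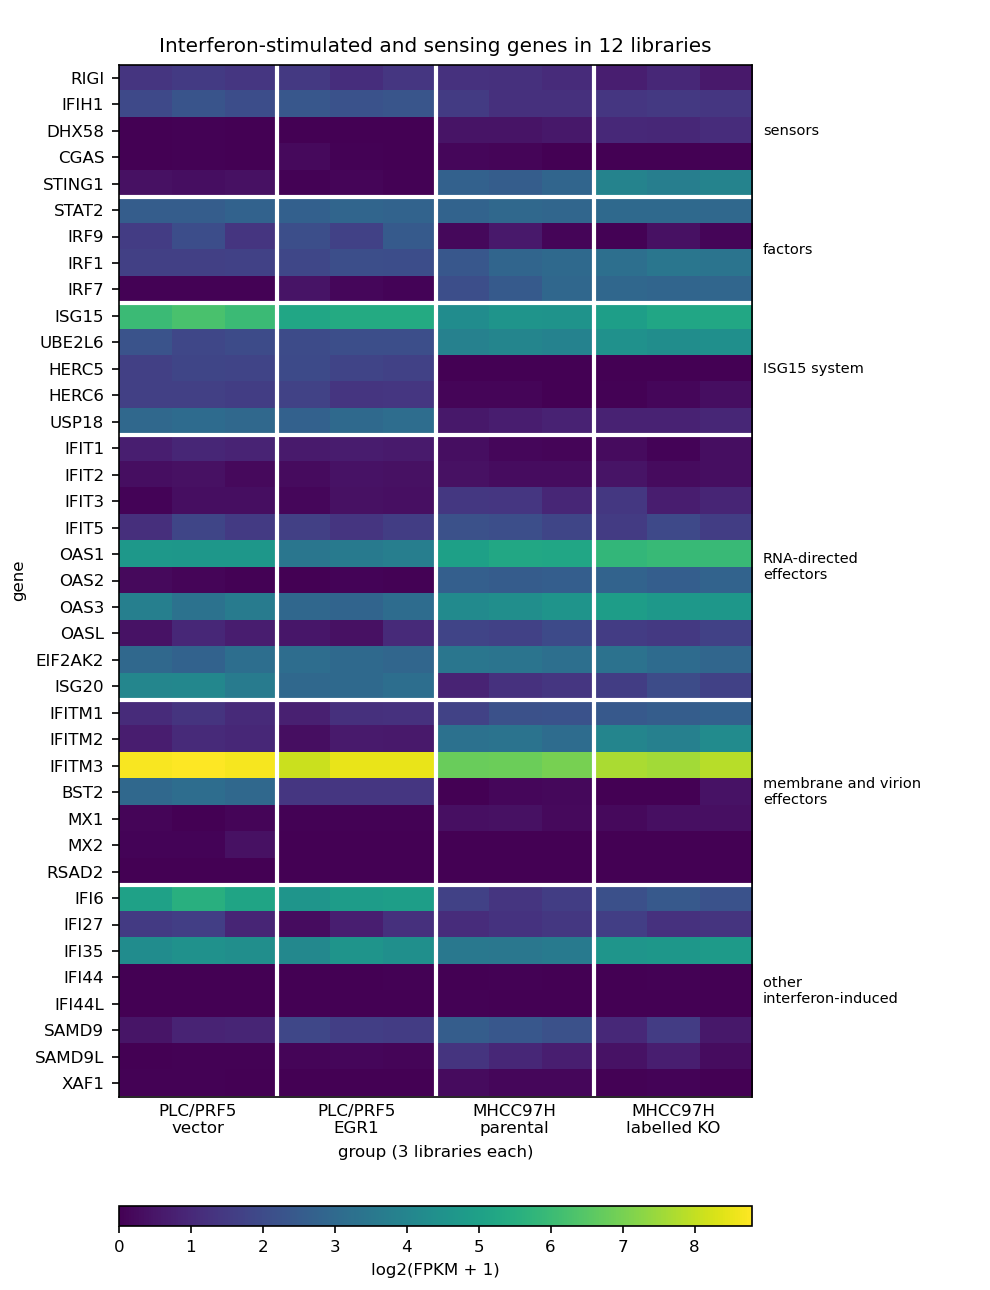
Levels of the 39 genes on log2(FPKM + 1) (colour scale) in the 12 libraries (columns, 3 per group), with genes in rows ordered by role. IFITM3 is the brightest row in every library, and the rows of IFI44, IFI44L, XAF1, MX2 and RSAD2 stay dark in all groups.

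IFITM3, which hinders the fusion of enveloped viruses with the endosome, was the highest of the 39 in every library. It made up 64.3 to 69.2% of the summed FPKM of the 39 genes in PLC/PRF5 and 38.8 to 46.5% in MHCC97H. The sum of all 39 was 628 to 693 FPKM with vector, 418 to 537 with EGR1 overexpression, 272 to 305 in parental MHCC97H and 445 to 492 in the libraries labelled knockout. The ranges of vector and EGR1 libraries did not overlap, nor did those of parental and labelled knockout libraries. Without IFITM3 the sums were 216 to 248, 148 to 171, 161 to 177 and 249 to 263 FPKM in the same order. In bulk RNA, a lower value in every cell and fewer cells with the transcript cannot be told apart.

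The interferon genes themselves were at or near 0. Of 9 interferon genes looked for (types I, II and III), 8 were listed at 0 in all vector libraries, 9 in all EGR1 libraries, 8 in all parental libraries and 7 in all labelled knockout libraries. The highest sum of the 9 in any library was 0.146 FPKM, and none could be tested.

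The control libraries of the 2 lines were compared first, parental MHCC97H minus PLC/PRF5 vector, to describe the basal state. The line, the vector and any batch that follows the line cannot be told apart in this comparison. Of 27 genes that passed the filter of a mean of at least 1 FPKM, 14 were higher and 12 lower in MHCC97H (limma adjusted p under 0.05). Across all genes tested 79.8% passed, 38.8% higher and 40.9% lower, so the share called among these genes is read against that. The groups did not overlap for 26 of the 27, against 81.0% of all genes tested. With a correction for GC content and length, described below, 13 were higher and 12 lower, against 39.4% and 42.1% of all genes tested. For 11 of the 27, the mean of 1 group was under 1 FPKM, and such genes passed the filter only through the line in which they are high.

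Among the sensors, STING1, the adaptor that cGAS activates, was 0.30, 0.26 and 0.32 FPKM with vector and 5.68, 5.02 and 6.31 in parental MHCC97H (log2 difference 2.36 ± 0.10, limma adjusted p = 7.88e-08). The RNA sensor IFIH1 (MDA5) went the other way, at 2.84, 3.89 and 3.21 against 1.92, 1.34 and 1.33 FPKM (-0.77 ± 0.13, limma adjusted p = 0.000606). RIGI was 1.58, 1.81 and 1.65 against 1.40, 1.31 and 1.11 FPKM, lower by a small margin (-0.24 ± 0.09, limma adjusted p = 0.0391), a call lost without any library but parental replicate 1 (limma adjusted p up to 0.109). No library of one line overlapped the other line for these 3 sensors.

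Of IRF9 and STAT2, which act together in the complex that carries the interferon signal, IRF9 was lower in MHCC97H and STAT2 slightly higher. IRF9 was 1.93, 3.20 and 1.58 FPKM with vector and 0.13, 0.52 and 0.09 in parental cells (-1.36 ± 0.20, limma adjusted p = 0.000204). STAT2 was 5.12, 4.99 and 5.74 against 5.94, 6.88 and 6.56 FPKM and just passed the test (0.25 ± 0.10, limma adjusted p = 0.0465). That call was lost without either vector replicate 1 or 2 or parental replicate 2 or 3 (limma adjusted p up to 0.167). The table also held 3031 names of assembled loci without gene symbols, which were not assigned to genes here, and whether reads of a gene listed near 0 fell into one of them was not tested.

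IRF7, which amplifies interferon production, showed the opposite order to IRF9. It was 0.05, 0.02 and 0.03 FPKM with vector and 3.31, 4.67 and 6.75 in parental MHCC97H (2.47 ± 0.19, limma adjusted p = 3.01e-06). IRF1, a transcriptional activator of many of these genes, was 2.15, 2.17 and 2.22 against 4.25, 6.26 and 7.09 FPKM (1.09 ± 0.16, limma adjusted p = 0.000194). Thus 3 of the 4 transcription factors were called higher in MHCC97H and 1 lower, against 38.8% and 40.9% of all genes tested. IRF7 and IRF9 passed the filter only through the line in which they are high, and the call of STAT2 was weak.

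In the ISG15 system, a ubiquitin-like tag with its own enzymes, 4 of 5 genes were lower in MHCC97H. Over all genes tested 40.9% were lower, and HERC5, HERC6 and USP18 passed the filter only through PLC/PRF5. ISG15 itself was 63.7, 76.5 and 62.6 FPKM with vector and 18.4, 22.5 and 21.7 in parental cells (-1.65 ± 0.11, limma adjusted p = 1.37e-06). HERC5, the main ligase for the tag, was 2.17, 2.58 and 2.52 FPKM with vector and was listed at 0 in all 6 MHCC97H libraries. USP18, which removes the tag and damps the receptor, was 6.85, 7.53 and 6.89 against 0.47, 0.63 and 0.78 FPKM. The conjugating enzyme UBE2L6 was the exception, at 3.73, 2.65 and 3.05 against 13.6, 15.1 and 14.0 FPKM (1.88 ± 0.12, limma adjusted p = 8.28e-07).

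Of 7 RNA-directed effectors tested, 6 were called higher in MHCC97H, against 38.8% of all genes tested. OAS2 and OASL passed the filter only through MHCC97H, the line in which they are high. Of these 6 calls, those of IFIT5 and EIF2AK2 did not hold with the correction, where IFIT5 was at 0.02 (limma adjusted p = 0.84) and EIF2AK2 turned to -0.27 (limma adjusted p = 0.0489). Both were also lost without parental replicate 1 or 2, and EIF2AK2 without vector replicate 1 or 2 as well (limma adjusted p up to 0.082). The OAS proteins make the 2-5A signal that leads to RNA degradation. OAS2 was 0.18, 0.09 and 0.05 FPKM with vector and 5.40, 4.95 and 5.13 in parental MHCC97H (2.48 ± 0.09, limma adjusted p = 3.07e-08), while its neighbours on chromosome 12, OAS1 and OAS3, were expressed in both lines with log2 differences of 0.49 and 0.76. ISG20, an exonuclease, was the effector lower in MHCC97H, at 15.5, 15.7 and 11.5 against 0.85, 1.37 and 1.60 FPKM (-2.75 ± 0.16, limma adjusted p = 6.20e-07).

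Neighbouring genes of the IFITM cluster on chromosome 11 differed in direction between the lines. IFITM3 was 418, 446 and 412 FPKM with vector and 111, 112 and 128 in parental MHCC97H (-1.85 ± 0.08, limma adjusted p = 9.10e-08). IFITM2 was 0.63, 1.04 and 0.96 against 8.67, 9.25 and 7.73 FPKM (2.35 ± 0.12, limma adjusted p = 2.35e-07), and IFITM1 was also higher in MHCC97H (0.88 ± 0.15, limma adjusted p = 0.000556). These 3 genes are near copies of each other. Of their distinct stretches of 50 bases, 8.46 to 30.3% occurred in another of the 3, and IFITM1 overlaps IFITM2 on the same strand, so reads may have been divided between them by the counting and their separate values are uncertain.

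BST2 (tetherin), which holds budding virions at the cell surface, was 6.86, 7.87 and 6.85 FPKM with vector and 0, 0.11 and 0.14 in parental MHCC97H (-2.92 ± 0.10, limma adjusted p = 2.24e-08). IFI6, a mitochondrial and ER protein, had the largest log2 difference of the tested genes, at 32.2, 45.7 and 33.9 against 2.28, 1.56 and 2.03 FPKM (-3.69 ± 0.15, limma adjusted p = 6.74e-08). SAMD9, a restriction factor for poxviruses, was 0.40, 0.85 and 0.89 against 5.01, 4.29 and 3.55 FPKM (1.63 ± 0.15, limma adjusted p = 1.07e-05). IFI27 was the only tested gene that did not pass (-0.07 ± 0.18, limma adjusted p = 0.744), but with the correction it was called higher (0.74, limma adjusted p = 0.00111), so no direction is given for it. IFI35, at 18.3, 20.8 and 19.5 against 10.6, 10.3 and 11.2 FPKM, was called lower (-0.81 ± 0.09, limma adjusted p = 3.29e-05) and lost that call with the correction (-0.11, limma adjusted p = 0.169).

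From a list of 21 other interferon-stimulated genes outside the 39, 16 were tested, of which 11 were higher in MHCC97H and 1 (TRIM5) was lower, 75.0% called against 79.8% of all genes tested. IFI16, a nuclear DNA sensor that can act with STING, was 0.04, 0 and 0 FPKM with vector and 23.2, 23.4 and 19.1 in parental MHCC97H (4.49 ± 0.11, limma adjusted p = 3.17e-09). STING1 and IFI16 were therefore both expressed in MHCC97H and both low in PLC/PRF5, whereas CGAS was near 0 in both lines.

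**Figure D2:**
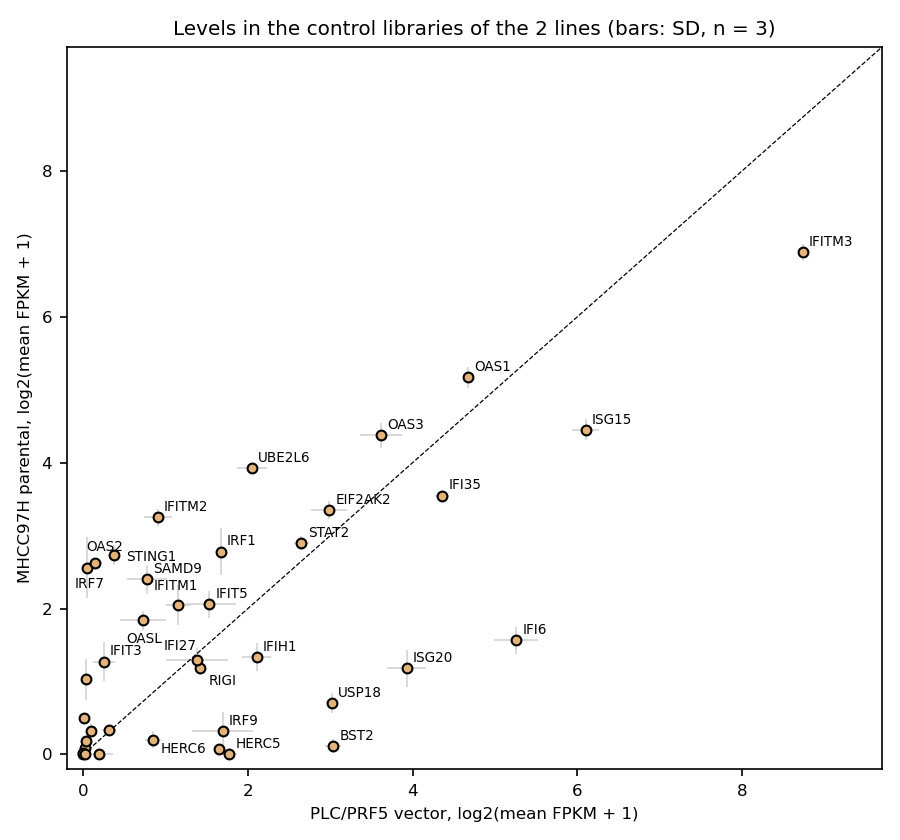
Mean level of each of the 39 genes on log2(mean FPKM + 1) in PLC/PRF5 vector libraries (x axis) and parental MHCC97H libraries (y axis), with SD of log2(FPKM + 1) over 3 libraries as bars and equal levels as the dashed line. STING1, OAS2 and IRF7 lie near the y axis, and BST2, USP18, HERC5 and HERC6 lie near the x axis.

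EGR1 overexpression in PLC/PRF5 was then compared with vector, to ask which of these transcripts differ when EGR1 is raised in HCC cells. Among the genes tested, 6 were lower (BST2, OAS1, ISG20, ISG15, OAS3 and IFI6) and 2 were higher (SAMD9 and IRF1). With 22 of 39 tested, 36.4% were called, against 29.6% of all genes tested. By direction, 6 of 22 were lower against 10.4% of all genes tested, and 2 of 22 were higher against 19.2%. The median log2 difference of the 22 was -0.06, and that of all genes tested was 0.09. The 2 groups did not overlap for 9 of the 22 genes, against 47.7% of all genes tested.

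BST2 fell most. Its FPKM was 6.86, 7.87 and 6.85 with vector and 1.62, 1.62 and 1.63 with EGR1, which is 4.43-fold lower in the mean (log2 difference -1.64 ± 0.10, limma adjusted p = 2.15e-05). All EGR1 libraries lay far below all vector libraries. Overlapping matches like those in its promoter were also present in the promoters of ISG15, IFIH1 and HERC5. Of these, only ISG15 was called in this comparison, and a link was not tested.

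OAS1 was 24.9, 24.2 and 24.3 FPKM with vector and 9.86, 10.9 and 12.6 with EGR1, 2.19-fold lower (-1.07 ± 0.10, limma adjusted p = 0.000253). OAS3 was 13.1, 8.98 and 11.8 against 6.63, 6.20 and 7.55 FPKM, 1.66-fold lower (-0.65 ± 0.14, limma adjusted p = 0.00940). ISG20 was 15.5, 15.7 and 11.5 against 6.88, 7.07 and 8.16 FPKM, 1.93-fold lower (-0.85 ± 0.13, limma adjusted p = 0.00235). In these 3 genes, whose products degrade RNA or signal its degradation, the groups did not overlap. The other RNA-directed effectors tested, IFIT5 and EIF2AK2 (the kinase PKR, which halts translation), did not pass, although with the GC and length correction EIF2AK2 turned from 0.04 to -0.37 and was called (limma adjusted p = 0.0363).

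ISG15 was 63.7, 76.5 and 62.6 FPKM with vector and 35.8, 40.2 and 40.9 with EGR1, 1.73-fold lower (-0.78 ± 0.10, limma adjusted p = 0.00146). Its enzymes did not follow, since UBE2L6, HERC5, HERC6 and USP18 were all tested and none passed, with adjusted p of 0.381 to 0.847 in limma. IFI6 was 32.2, 45.7 and 33.9 against 23.1, 28.0 and 29.5 FPKM, 1.39-fold lower (-0.45 ± 0.14, limma adjusted p = 0.0444). The call of IFI6 is weak, because it was lost when any library but vector replicate 1 was left out (limma adjusted p up to 0.114).

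IFITM3 was 418, 446 and 412 FPKM with vector and 271, 366 and 365 with EGR1. The groups did not overlap, but the difference did not pass the test (-0.36 ± 0.13, limma adjusted p = 0.0681). It passed as lower under 6 of 15 alternatives, among them the correction (-0.36, limma adjusted p = 0.00229), quantile normalization (limma adjusted p = 0.0086), scaling to the same total (limma adjusted p = 0.0115) and leaving out EGR1 replicate 1, the lowest library (-0.22, limma adjusted p = 0.0496). IFI27 was 1.85, 2.08 and 0.89 against 0.23, 0.68 and 1.30 FPKM, with overlap, and did not pass either (-0.60 ± 0.25, limma adjusted p = 0.0950), although it did without vector replicate 3 (limma adjusted p = 0.0491) or EGR1 replicate 3 (limma adjusted p = 0.0391) and with the correction (limma adjusted p = 0.0333).

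The transcription factors did not fall with these genes. IRF1 was 2.15, 2.17 and 2.22 FPKM with vector and 2.66, 3.37 and 3.19 with EGR1, 1.41-fold higher (0.35 ± 0.10, limma adjusted p = 0.0328). That call was lost without vector replicate 1 or 3 and without EGR1 replicate 2 or 3 (limma adjusted p up to 0.131). STAT2 was 5.12, 4.99 and 5.74 against 5.45, 6.39 and 5.97 FPKM and did not pass (0.14 ± 0.10, limma adjusted p = 0.299). IRF9 was 1.93, 3.20 and 1.58 against 3.37, 2.22 and 4.59 FPKM, with overlap, and did not pass (0.44 ± 0.23, limma adjusted p = 0.173).

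The RNA sensors did not pass either. IFIH1 was 2.84, 3.89 and 3.21 FPKM with vector and 4.27, 3.63 and 3.95 with EGR1 (0.20 ± 0.12, limma adjusted p = 0.213). RIGI was 1.58, 1.81 and 1.65 against 1.73, 1.21 and 1.64 FPKM (-0.09 ± 0.11, limma adjusted p = 0.573), and with the correction it was called lower (-0.33, limma adjusted p = 0.0375).

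SAMD9 rose, from 0.40, 0.85 and 0.89 FPKM with vector to 2.70, 2.10 and 1.98 with EGR1 (0.94 ± 0.15, limma adjusted p = 0.00268). It passed the filter through the EGR1 group alone, since its vector mean was under 1 FPKM. STING1 was below the filter, at 0.30, 0.26 and 0.32 with vector and 0.03, 0.09 and 0.03 FPKM with EGR1. When every gene above 0 in any library was tested, STING1 was called lower (-0.31, limma adjusted p = 0.00593). SAMD9L was called higher in that test (0.11, limma adjusted p = 0.0303). Both calls are without the correction and rest on values near 0.

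Pathway genes outside the 39 were looked at by list in PLC/PRF5. Of 9 tested receptor and kinase genes, IFNGR1 and TYK2 were higher and IFNGR2 and IL10RB lower, 44.4% called against 29.6% of all genes tested. Of 7 tested sensing adaptors and kinases, only TBK1, which phosphorylates IRF3, was higher, at 4.50, 8.59 and 6.80 against 14.7, 13.0 and 13.0 FPKM (0.97 ± 0.18, limma adjusted p = 0.00537). Of 15 tested other interferon-stimulated genes, 1 passed. This was LGALS3BP, a secreted glycoprotein, at 201, 186 and 188 FPKM with vector and 131, 130 and 130 with EGR1 (-0.55 ± 0.08, limma adjusted p = 0.00217). The 4 tested brakes of the pathway, SOCS3, PIAS1, IRF2 and PTPN2, did not pass. Markers of cell types moved in this comparison too. Of 8 hepatocyte markers tested, ALB, APOA1 and SERPINA1 were higher with EGR1 and 0 lower, 37.5% called against 29.6% of all genes tested. The summed level of the whole list was 3914 to 4186 FPKM with vector and 4723 to 5967 with EGR1. PECAM1, an endothelial marker, was lower (-0.45 ± 0.11, limma adjusted p = 0.0143). Their part in the results was not tested.

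**Figure D3:**
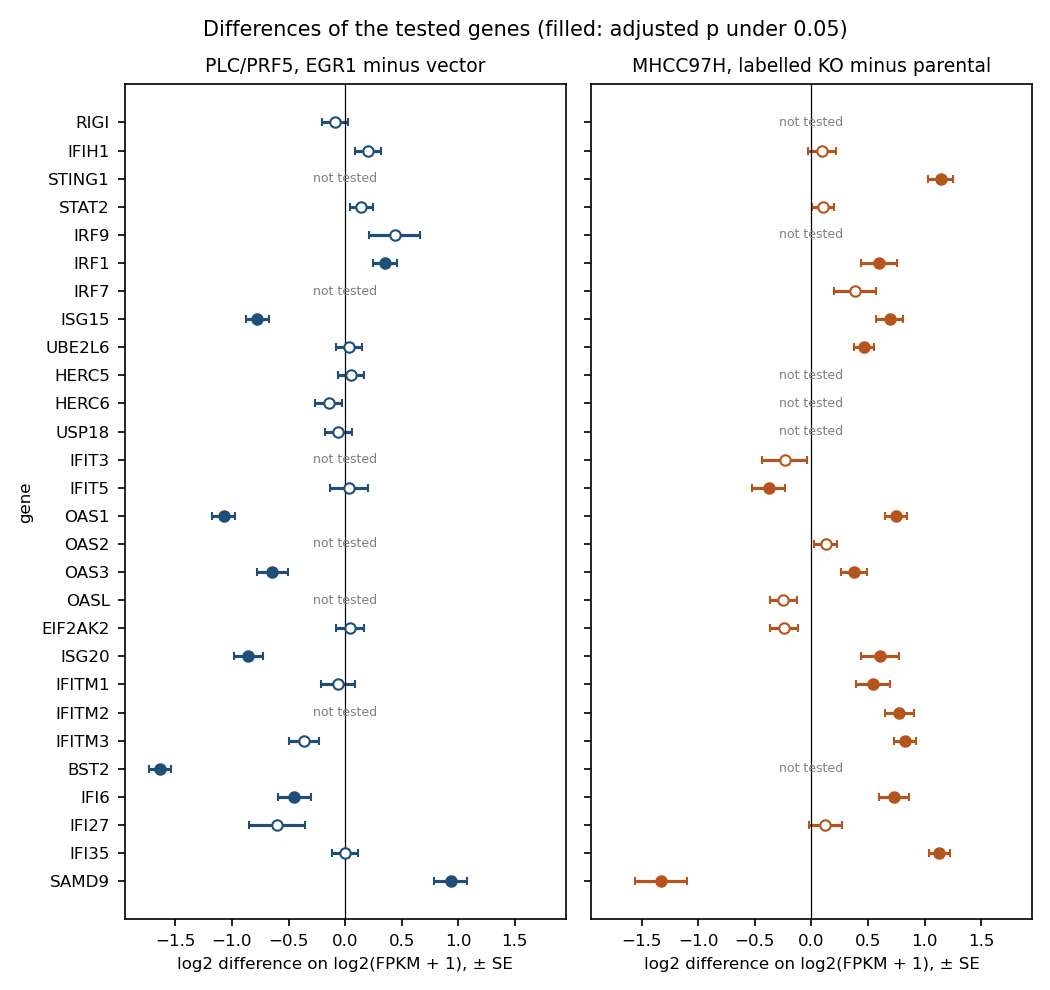
Log2 differences (x axis, on log2(FPKM + 1), ± SE, 3 against 3 libraries) of the genes tested in PLC/PRF5 (left) and MHCC97H (right), filled where the limma adjusted p was under 0.05. BST2, OAS1, ISG20 and ISG15 lie left of 0 in PLC/PRF5, and OAS1, ISG20 and ISG15 lie right of 0 in MHCC97H.

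In MHCC97H, the libraries labelled knockout were compared with the parental ones. The knockout cells had been infected with a lentiviral CRISPR vector and cloned, which is not stated for the parental cells. The EGR1 edit, the vector, the cloning and any batch cannot be told apart in this comparison. Here 12 genes were higher (STING1, IFI35, IFITM3, IFITM2, OAS1, IFI6, ISG15, ISG20, IRF1, IFITM1, UBE2L6 and OAS3) and 2 were lower (SAMD9 and IFIT5). With 22 of 39 tested, 63.6% were called, close to the 66.3% of all genes tested. By direction, 12 of 22 were higher against 34.8% of all genes tested, and 2 of 22 were lower against 31.5%. The median log2 difference was 0.43 over the 22 and 0.02 over all genes tested. The groups did not overlap for 14 of 22, against 71.8% of all genes tested. Of the 8 leukocyte markers, CD68 and CD14 were also higher (0.90 ± 0.09, limma adjusted p = 5.76e-05, and 0.56 ± 0.14, limma adjusted p = 0.00716), and with the correction for GC content described next they were at 0.41 and -0.03. Of 4 hepatocyte markers tested, ALB, KRT8 and KRT18 were higher and 0 lower, 75.0% called against 66.3% of all genes tested. APOB had a mean of at least 1 FPKM in parental cells only, and ALB and AFP in the libraries labelled knockout only. The summed level of the whole list was 1457 to 1840 FPKM in parental cells and 2231 to 2663 in the libraries labelled knockout. LUM, a fibroblast marker, was lower, at 7.396 to 10.9 against 0.91 to 1.41 FPKM (-2.14 ± 0.16, limma adjusted p = 2.20e-05). Their part in the results was not tested.

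These differences moved with the GC content of the transcripts. Over the 22 genes, the log2 difference and GC content had a Spearman correlation of 0.67 and a Pearson correlation of 0.73, as a description over genes of the same 6 libraries. With a correction for GC content and length fitted over all genes, 7 of the 22 were higher and 2 lower, against 24.3% and 22.4% of all genes tested, and the median fell to 0.22. Of the 14 genes called without the correction, 5 were called in the same direction with it, which were STING1, IFI35, OAS1, IFITM3 and SAMD9. Another 8 lost their call and IFIT5 turned to the other direction, while 3 genes not called before were called with it (IFIH1 and EIF2AK2 higher, OASL lower). In PLC/PRF5 the same correction kept all 8 calls in their direction and gave 10 lower and 2 higher, against 17.9% and 16.7% of all genes tested. There the calls over all genes shifted from 64.8% higher to 48.4% higher with the correction, and to 46.0% higher with quantile normalization, which left 7 lower and 1 higher among the 22.

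STING1 was 5.68, 5.02 and 6.31 FPKM in parental cells and 14.2, 12.4 and 14.4 in the libraries labelled knockout, 2.42-fold higher (1.14 ± 0.11, limma adjusted p = 5.80e-05; with the correction 0.59, limma adjusted p = 0.000932). IFIH1 was 1.92, 1.34 and 1.33 against 1.64, 1.78 and 1.63 FPKM and did not pass (0.09 ± 0.13, limma adjusted p = 0.524), but was called higher with the correction (0.40, limma adjusted p = 0.0113). DHX58 (LGP2), which tunes RIG-I and MDA5, was just below the filter, at 0.39, 0.39 and 0.47 against 1.01, 0.99 and 1.17 FPKM. RIGI was also just below the filter, at 1.40, 1.31 and 1.11 against 0.67, 0.98 and 0.51 FPKM. When every gene above 0 in any library was tested, DHX58 was called higher (0.53, limma adjusted p = 0.00163) and RIGI lower (-0.41, limma adjusted p = 0.0332). Both calls are without the correction, and GC content was 58.2% for DHX58 and 40.5% for RIGI, so no direction is given for them.

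OAS1 was 31.0, 37.8 and 36.1 FPKM in parental cells and 56.3, 59.6 and 62.2 in the libraries labelled knockout, 1.70-fold higher (0.75 ± 0.10, limma adjusted p = 0.000233). It was hardly moved by the correction (0.69, limma adjusted p = 0.000407). OAS3 was 17.6, 19.2 and 22.4 against 29.01, 24.6 and 24.1 FPKM (0.38 ± 0.11, limma adjusted p = 0.0162), and was not called with the correction (0.14, limma adjusted p = 0.113) or without parental replicate 1 or 2 or labelled knockout replicate 1 (limma adjusted p up to 0.0655). OAS2 did not pass. OASL, at 2.54, 2.28 and 2.90 against 1.98, 1.78 and 2.27 FPKM, did not pass (-0.25 ± 0.12, limma adjusted p = 0.0932) and was called lower with the correction (-0.43, limma adjusted p = 0.00711). ISG20 was 0.85, 1.37 and 1.60 against 2.00, 3.11 and 2.27 FPKM (0.61 ± 0.17, limma adjusted p = 0.0101), and was not called with the correction (0.18, limma adjusted p = 0.366).

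All 3 IFITM genes were higher without the correction. IFITM3 was 111, 112 and 128 FPKM in parental cells and 204, 192 and 229 in the libraries labelled knockout, 1.78-fold higher (0.83 ± 0.10, limma adjusted p = 0.000150; with the correction 0.31, limma adjusted p = 0.00554). IFITM2 was 8.67, 9.25 and 7.73 against 15.1, 13.1 and 18.1 FPKM and IFITM1 2.30, 3.5 and 3.63 against 4.46, 5.05 and 5.47, and with the correction neither passed (limma adjusted p = 0.0911 and 0.115). BST2 could not be tested, being 0 to 0.34 FPKM in the 6 libraries.

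ISG15 was 18.4, 22.5 and 21.7 FPKM in parental cells and 29.5, 35.8 and 37.8 in the libraries labelled knockout, 1.65-fold higher (0.69 ± 0.12, limma adjusted p = 0.000949). Its GC content was 63.4%, and with the correction its difference was 0.01 (limma adjusted p = 0.946). UBE2L6 changed sign with the correction (from 0.47 to -0.12, limma adjusted p = 0.269).

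IFI35 was 10.6, 10.3 and 11.2 FPKM in parental cells and 23.1, 24.4 and 26.5 in the libraries labelled knockout, 2.30-fold higher (1.13 ± 0.09, limma adjusted p = 3.34e-05; with the correction 0.49, limma adjusted p = 0.000550). IFI6 was 2.28, 1.56 and 2.03 against 3.48, 4.52 and 3.71 FPKM (0.73 ± 0.13, limma adjusted p = 0.00141), and was not called with the correction (0.24, limma adjusted p = 0.192). IRF1 was 4.25, 6.26 and 7.09 against 8.30, 9.87 and 9.51 FPKM (0.59 ± 0.16, limma adjusted p = 0.00910), and was not called with the correction (0.33, limma adjusted p = 0.0859).

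The other factors did not pass. STAT2 was 5.94, 6.88 and 6.56 FPKM in parental cells and 7.12, 7.02 and 6.84 in the libraries labelled knockout (0.10 ± 0.10, limma adjusted p = 0.382). IRF7 was 3.31, 4.67 and 6.75 against 6.604, 6.40 and 6.49 FPKM (0.38 ± 0.19, limma adjusted p = 0.0941), and its sign turned with the correction (-0.37, limma adjusted p = 0.0871). IRF9 was below the filter, at 0.13, 0.52 and 0.09 against 0.05, 0.32 and 0.09 FPKM.

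SAMD9 fell, from 5.01, 4.29 and 3.55 FPKM in parental cells to 1.03, 1.99 and 0.49 in the libraries labelled knockout, 3.66-fold lower (-1.33 ± 0.23, limma adjusted p = 0.00101; with the correction -0.55, limma adjusted p = 0.00986). Its neighbour on chromosome 7, SAMD9L, was below the filter at 1.48, 0.97 and 0.68 against 0.36, 0.68 and 0.23 FPKM. IFIT5 was 3.57, 3.37 and 2.59 against 1.86, 2.80 and 2.01 FPKM, with overlap (-0.38 ± 0.15, limma adjusted p = 0.0457), and was not called without parental replicate 1 or 2 or labelled knockout replicate 1 or 3 (limma adjusted p up to 0.148). Its direction turned with the correction (0.27, limma adjusted p = 0.0491), and so did that of EIF2AK2 (from -0.24, limma adjusted p = 0.111, to 0.46, limma adjusted p = 0.00393), so no direction is given for these 2 genes.

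**Figure D4:**
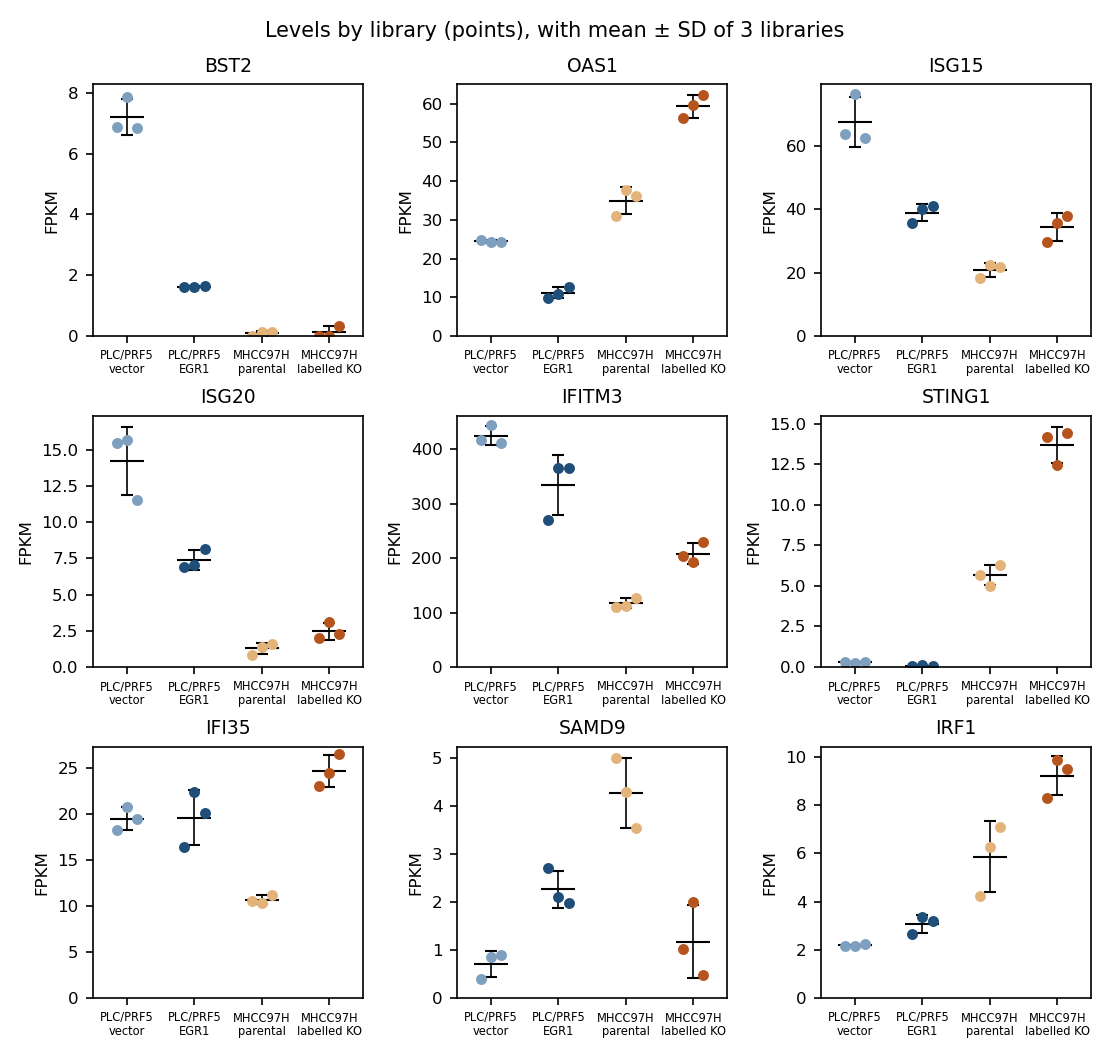
FPKM (y axes from 0) of 9 genes in each library (points) by group, with mean ± SD of 3 libraries as bars. OAS1, ISG15, ISG20 and IFITM3 are lower with EGR1 than with vector in PLC/PRF5 and higher in the libraries labelled knockout than in parental MHCC97H, and SAMD9 shows the reverse.

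The receptors moved in both directions in MHCC97H. Of 8 tested receptor and kinase genes, IFNAR1, IFNAR2, IFNGR1, IFNGR2 and JAK1 were lower and IFNLR1 and TYK2 were higher, without the correction. That is 87.5% called, against 66.3% of all genes tested (34.8% higher and 31.5% lower). IFNAR1, a subunit of the type I interferon receptor, was 15.1, 15.1 and 14.2 FPKM in parental cells and 7.45, 7.51 and 6.12 in the libraries labelled knockout (-0.98 ± 0.10, limma adjusted p = 8.68e-05; with the correction -0.55, limma adjusted p = 0.000305). Of 8 tested sensing adaptors and kinases, MAVS, IKBKE, IRF3 and TICAM1 were higher and TBK1 was lower, again without the correction. This share of 62.5% is close to that of all genes tested. IRF3, which induces interferon, was 27.3, 34.8 and 38.1 against 80.9, 80.5 and 97.3 FPKM (1.35 ± 0.13, limma adjusted p = 6.05e-05; with the correction 0.65, limma adjusted p = 0.000521).

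The other interferon-stimulated genes were mixed in MHCC97H, with 4 of 18 tested higher and 5 lower. Over all genes tested 34.8% were higher and 31.5% lower, so neither direction was more frequent in this list than among all genes. LGALS3BP was 243, 254 and 286 FPKM in parental cells and 551, 461 and 522 in the libraries labelled knockout (0.97 ± 0.10, limma adjusted p = 9.31e-05; with the correction 0.36, limma adjusted p = 0.00289). GBP1, a GTPase, was 1.08, 0.88 and 1.15 against 1.79, 2.00 and 1.80 FPKM (0.49 ± 0.11, limma adjusted p = 0.00416; with the correction 0.80). ADAR, which edits double-stranded RNA, was among the lower, at 91.4, 96.5 and 99.1 against 86.3, 70.9 and 71.8 FPKM (-0.33 ± 0.10, limma adjusted p = 0.0152). The brakes SOCS3 (1.14 ± 0.13, limma adjusted p = 0.000107) and PIAS1 (-0.79 ± 0.12, limma adjusted p = 0.000540) moved in opposite directions, and PTPN2 was lower as well. Of 4 tested brakes, 75.0% were called, against 66.3% of all genes tested. The values of ADAR and of the brakes are without the correction.

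The 2 EGR1 comparisons share no libraries, and 16 of the 39 genes were tested in both. Of these, 7 were called in both and 6 had opposite signs. ISG15, OAS1, OAS3, ISG20 and IFI6 fell with EGR1 overexpression and were above the parental level under the knockout label, and SAMD9 was the reverse. IRF1 was higher in both. In MHCC97H, ISG15, OAS3, ISG20, IFI6 and IRF1 lost their calls with the correction, whereas OAS1 and SAMD9 kept theirs in both comparisons. Opposite signs prevailed over all genes as well, at 1859 of the 2225 called in both (83.6%), so the share among the 7 is near the background. EGR1 mRNA was higher than in the controls in both comparisons.

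The difference between the 2 effects was tested in 1 fit of all 12 libraries, as the effect in the libraries labelled knockout minus that of EGR1 overexpression. Of 27 genes tested, 12 were higher and 1 was lower, against 63.8% of all genes called in either direction (30.4% higher and 33.4% lower). With the correction 16 were higher and 3 lower, against 26.0% and 23.9% of all genes tested. OAS1 differed most among the higher (1.82 ± 0.14, limma adjusted p = 1.23e-06; with the correction 1.78, limma adjusted p = 2.46e-07). ISG15 (1.47 ± 0.16), ISG20 (1.46 ± 0.22), IFITM3 (1.19 ± 0.17), IFI6 (1.18 ± 0.21) and OAS3 (1.02 ± 0.19) followed, each also called with the correction. BST2 (1.67) and STING1 (1.45) passed although each was near 0 in 1 line, so their values rest on the line that expresses them.

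For SAMD9 the difference of effects was -2.27 ± 0.30 (limma adjusted p = 5.71e-05; with the correction -1.04, limma adjusted p = 0.000230). UBE2L6 lost its call and changed sign with the correction (0.43 to -0.17). For IRF1 no difference between the 2 effects was found (0.24 ± 0.20, limma adjusted p = 0.302), which does not show that they were equal. None of the 4 transcription factors passed this test without the correction, and neither IFIH1 nor RIGI passed among the sensors, although RIGI passed as lower without labelled knockout replicate 2 (limma adjusted p = 0.0263) or EGR1 replicate 2 (limma adjusted p = 0.0407), and IRF9 as lower without vector replicate 2 (limma adjusted p = 0.0366) or EGR1 replicate 2 (limma adjusted p = 0.0382). With the correction IRF9 (-1.05, limma adjusted p = 0.014) and IRF7 (-0.68, limma adjusted p = 0.0152) were called lower, and RIGI (0.40, limma adjusted p = 0.0202) and IFIH1 (0.32, limma adjusted p = 0.0493) higher. The sign of IRF7, RIGI and IFIH1 was the opposite without it, as it was for EIF2AK2 (-0.29 without, 0.80 with, limma adjusted p = 0.000978) and IFIT5 (-0.41 without, 0.56 with, limma adjusted p = 0.00615), so no direction is given for these 5 genes.

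The promoter matches were set beside these calls as a description. In PLC/PRF5, 5 of the 6 lower genes held the GAAA pair (OAS1 did not), as did 1 of the 2 higher ones, SAMD9, and 7 of the 13 not called that have a promoter in the table. In the libraries labelled knockout the letters were in 6 of 10 higher and in both lower genes with a promoter, and in 4 of 5 not called. Of the genes that passed in neither line, IFIT1, MX1, RSAD2, IFI44 and IFI44L held them and XAF1 did not.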

How the data were processed

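The authors deposited 1 table of FPKM values per gene for 12 RNA-seq libraries, 3 per group. The submitters' processing notes name StringTie and the build hg38. The aligner, tool versions, annotation and read depth are not given in the sources used here, and no counts could be recovered from the deposited FPKM values. Each column was matched to its sample by its label.

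Differences were tested with limma 3.58.1 in R 4.3.3, with an intensity trend, on log2(FPKM + 1), for genes with a mean of at least 1 FPKM over the libraries of the fit. Tests were 2-sided, p-values were adjusted by Benjamini-Hochberg over all genes tested, and 0.05 was the threshold. A fold change on log2(FPKM + 1) understates that of low genes, and "-fold" values are ratios of mean FPKM. The fits were tested on simulated data before use. The genes and lists were chosen with earlier results of these data known. In each comparison of one group with another, the 8 called genes with the largest differences, and the sensors and factors with a mean of at least 1 FPKM in one of its groups, are given by library. Positions, GC content and transcript lengths came from GENCODE 29 (GRCh38), which matched 99.3% of the 19932 names that are not assembled loci, and the GC and length correction used splines with 5 degrees of freedom. The alternatives tried were this correction, other scalings, pseudocounts and filters, no trend, a replicate block, 1 fit of all libraries, a 2-fold minimum, other limits of expression and leaving out each library. Some pathway genes outside the 39 are not reported here.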

Additional observations from a re-analysis of the deposited data

How the results depend on the processing

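Of 1678 values recomputed under an alternative, 1457 gave the same call and direction (for counts, within 1.5 times, and for medians, within 1 SD of the replicates), 75 lost a call, 30 gained one, 52 changed sign and 64 moved. They cover the counts, medians and called genes, and of the genes not called the factors, RIGI, IFIH1, IFITM3, IFI27, EIF2AK2, IFIT5 and OASL.

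With the GC and length correction, the sign changed for 4 of 22 tested genes in PLC/PRF5, 6 of 22 in MHCC97H, 2 of 27 between the controls and 9 of 27 in the difference of effects. Alone or with the replicate block, it gave -0.37 for EIF2AK2 and -0.32 for IFIT5 in PLC/PRF5. HERC5 (-0.06) and IFI35 (0.05) also turned there, uncalled either way. In labelled knockout minus parental it gave -0.12 for UBE2L6, -0.37 for IRF7, -0.087 for STAT2, -0.41 for IFI27, 0.27 for IFIT5 and 0.46 for EIF2AK2. Between the controls it gave -0.27 for EIF2AK2 and 0.74 for IFI27. In the difference of effects it gave -0.17 for UBE2L6, -0.68 for IRF7, -0.017 for IRF1, 0.40 for RIGI, 0.32 for IFIH1, 0.56 for IFIT5 and 0.80 for EIF2AK2, and HERC5 (0.29) and USP18 (-0.05) turned uncalled. HERC6 and OAS2 gained a call there, and IFITM1 lost its own.

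Other settings turned the sign only of uncalled values. Quantile normalization gave -0.11 for EIF2AK2, -0.12 for IFIT5 and -0.015 for STAT2 in PLC/PRF5, and 0.18 for IFIH1 and 0.16 for STAT2 in the difference of effects. Scaling to the same total gave -0.032 for STAT2 in MHCC97H, and a pseudocount of 0.1 gave -0.53 for IRF7 in the difference of effects. Leaving out each library in turn gave ranges that include 0 for EIF2AK2 (-0.0636 to 0.15), IFIT5 (-0.13 to 0.19) and RIGI (-0.15 to 0.0027) in PLC/PRF5, for IFI27 between the controls (-0.28 to 0.069), and for IRF7 (-0.0180 to 0.40), OASL (-0.33 to 0.0027) and STAT2 (-0.0936 to 0.0048) in the difference of effects.

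The correction gave 10 lower genes in PLC/PRF5, 7 higher genes in the libraries labelled knockout, also with the block, and 3 lower in the difference of effects, also with the block. With both, 5113 of all genes were called in MHCC97H. The medians of the tested genes became -0.26 in PLC/PRF5, 0.22 in MHCC97H, 0.019 between the controls and 0.40 for the difference of effects, with or without the block. Why the values follow GC content was not tested.

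Requiring 2-fold as well left 0 higher and 2 lower in PLC/PRF5 (206 of all genes), 2 higher and 1 lower in MHCC97H (1029), 8 higher between the controls (4431) and 2598 of all genes in the difference of effects. Quantile normalization gave 1 higher in PLC/PRF5 with a median of -0.20, 1 lower in MHCC97H and a median of 0.45 for the difference of effects. Scaling to the same total moved the median of all genes in MHCC97H by -0.13, gave 4 lower genes there with 11 higher and a median of 0.29, and gave a median of 0.34 between the controls. With it 41.6% of all calls in MHCC97H were higher, against 52.5%, and 41.0% against 47.7% in the difference of effects. A fit of all 12 libraries gave 1 higher in PLC/PRF5 and a median of 0.17 in MHCC97H. A filter of above 0 FPKM in any library gave medians of 0.10 in MHCC97H and between the controls, and 2 lower in the difference of effects. A pseudocount of 0.1 gave medians of 0.47 in MHCC97H and 0.78 for the difference of effects. With a limit of 2 FPKM, 14 genes passed in neither line.

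Whether the replicate numbers pair the samples could not be settled from so few libraries. Deviations of same-numbered libraries correlated with r of -0.13 to 0.14 in PLC/PRF5, 0.03 to 0.47 in MHCC97H and -0.39 to -0.01 between the controls. Differently numbered libraries gave r of -0.41 to 0.38 in MHCC97H. The replicate block left 1 higher gene in PLC/PRF5, IRF1 being lost (limma adjusted p = 0.0563), added EIF2AK2 as lower in MHCC97H (limma adjusted p = 0.0449), and lost RIGI and STAT2 between the controls (limma adjusted p = 0.0873 and 0.117).

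Leaving out each library in turn gave 1 to 2 higher and 5 to 6 lower in PLC/PRF5 (median -0.11 to -0.03, all genes 1919 to 4007, lowest without EGR1 replicate 2, and 2208 without EGR1 replicate 3 and 2246 without vector replicate 3). In MHCC97H it gave 11 to 13 higher and 1 to 3 lower (median 0.35 to 0.53, all genes 6419 to 7521). Between the controls it gave 11 to 14 higher and 8 to 12 lower (median 0.21 to 0.48, all genes 8898 to 9556). For the difference of effects it gave 11 to 13 higher and 1 to 3 lower (median 0.22 to 0.40, all genes 7096 to 7819). IFITM1 lost its call in the difference of effects without vector replicate 2, EGR1 replicate 1, parental replicate 1 or labelled knockout replicate 3. EIF2AK2 was called lower in MHCC97H without labelled knockout replicate 1 and IRF7 higher without parental replicate 3.

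Depth is unknown, so an FPKM near 0 sets no limit on a transcript, and 17 of the 39 genes went untested in each EGR1 comparison.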
